A study of Mus musculus with 23 samples.

Results

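Early erythroid progenitors of the mouse bone marrow (BM) were taken as single cells that held RNA of both Gata1 and Klf1, the master transcription factors of the red cell lineage, and had not yet filled with globin RNA. A cell was a member when its droplet barcode held at least 500 detected genes and at most 10% of its UMIs in mitochondrial genes, at least 1 UMI each of Gata1 and Klf1, no UMI of Pf4 (a platelet chemokine of megakaryocytes) or Cpa3 (a mast cell protease), and under 1% of its UMIs in the 4 adult globin genes Hbb-bs, Hbb-bt, Hba-a1 and Hba-a2. A UMI, or unique molecular identifier, marks 1 captured RNA molecule. Members were thus chosen by their own Gata1, Klf1, Pf4, Cpa3 and globin counts. Of 69444 BM barcodes past the filter on genes and mitochondrial UMIs, 2967 were members. The BM libraries held 75993 barcodes before that filter, and all 16 expression libraries of the study held 139967.

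The study compared mice with wild-type (WT) Stat5b to mice in which 1 tyrosine of the STAT5B protein was changed to phenylalanine (Y665F) or to histidine (Y665H). All BM samples came from C57BL/6 mice at the age of 2 months, with 2 libraries from WT, 2 from Y665H and 2 from Y665F. The methods of the study describe Y665H as made with an adenine base editor and Y665F with Cas9 and a donor oligonucleotide that also carried a silent change, both in C57BL/6N zygotes. The changes are in the germ line and so in every cell, which means that an effect arising in the erythroid cells and an effect that reached them from other cells cannot be told apart. The labels give neither the zygosity nor the number of mice behind a BM library. The paper describes homozygous mutants in its section on marrow. Whether cells were sorted before loading is not given in the sources used here. By Xist and Y-linked transcripts, replicate 1 of each genotype was female and replicate 2 male, while the paper's methods speak of tissues from male mice. Sex and replicate number thus cannot be told apart. The main fit had no term for sex, so p-values measure the spread between these libraries, sex included.

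Red cells arise from stem cells through progenitors that also make megakaryocytes, mast cells and basophils. On the way, Gata2 gives way to Gata1, the stem cell factor receptor Kit is lost, the erythropoietin receptor Epor is gained, and carbonic anhydrase 1 (Car1), the transferrin receptor and the enzymes of heme synthesis come up before globin does. Erythropoietin acts through JAK2 and the transcription factors STAT5A and STAT5B, which support the survival of erythroid cells and switch on their own inhibitors, among them Cish and the Socs genes.

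The edit and the DNA windows that the results return to are given here with their sequences. The guide RNA that the study lists for both alleles matched the plus strand of exon 16 of 19 of Stat5b, a gene of the minus strand, at chr11:100787287-100787309 (GRCm38.p6), shown 5′ to 3′ with the PAM, the bases that Cas9 requires next to its target, in capitals.
Stat5b guide and PAM: tgaggtaattcaggtcccccAGG
Windows around gene starts came from RefSeq (GRCm38.p6) and ran from 250 bases before to 50 after the start. A STAT5 site was searched as TTCNNNGAA on both strands and was held by 8.30% of all such windows of 300 bases. A GATA site was searched as GATAA on both strands and was held by 25.4%. The letters are a description and say nothing of binding. Of the 24 genes on the list of STAT5 targets and feedback genes, 19 had a window and 3 of these held a STAT5 site. The window of Cish, a feedback inhibitor of STAT5, held 2 such sites, in capitals below, at chr9:107296654-107296683 on the plus strand.
Cish: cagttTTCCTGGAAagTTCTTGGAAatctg
A GATA site stood in the windows of Epor (chr9:21963606-21963650, minus strand) and of Gfi1b, an erythroid repressor (chr2:28622077-28622121, minus strand). The capitals below mark GATAA in Gfi1b and its reverse complement in Epor. In Gfi1b they also mark a STAT5 site that stands before the GATA site.
Epor: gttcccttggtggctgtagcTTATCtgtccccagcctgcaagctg
Gfi1b: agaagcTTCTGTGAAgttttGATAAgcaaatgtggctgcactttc

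Libraries differed in ways that touch the members. BM libraries held between 4420 and 18742 barcodes and between 16399123 and 55768078 UMIs. The lowest barcode of Y665F replicate 2 held 1179 UMIs, against 500 in each of the other 5 libraries. Pairs of BM libraries shared between 80 and 476 barcodes, 3 of them member barcodes in all. Summed over member cells, the libraries held between 1832376 and 10894164 UMIs in WT and Y665H, 2801041 in Y665F replicate 1 and 470329, from 82 cells, in Y665F replicate 2. That last library is the shallowest and has the least precise values of the 6. The median mitochondrial share of a member's UMIs was 0.756% to 1.05% in WT and Y665H and 1.2% and 1.83% in Y665F, so both Y665F libraries lay above the other 4. In other cells it was 0.936% to 2.03% and 1.59% and 2.11%. The part of this difference in the changes of Y665F below was not tested.

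Members made up a smaller share of cells in both Y665F libraries than in any WT or Y665H library. They made up 10.7% (413 of 3866) and 5.42% (558 of 10289) of WT cells, 13.5% (1248 of 9254) and 3.23% (339 of 10510) of Y665H cells, and 1.94% (327 of 16814) and 0.438% (82 of 18711) of Y665F cells. The Y665F range did not overlap the others, while WT and Y665H overlapped and each spread widely between its libraries. The means were 8.05% ± 3.72 (SD, n = 2) in WT, 8.36% ± 7.26 in Y665H and 1.19% ± 1.07 in Y665F, a difference of -6.86 percentage points between Y665F and WT. A trend over the order Y665H, WT, Y665F was tested with an exact two-sided Jonckheere-Terpstra permutation test and gave p = 0.178. With 6 libraries such a test cannot go below 0.0222. The trend did not pass 0.05. These are shares of the loaded cells and not cell numbers, and they need not be those of whole marrow. A share also depends on how many other cells were loaded. By flow cytometry the paper reported more long-term stem cells and more multipotent progenitors in Y665F. Among its single-cell clusters it also reported more long-term stem cells. It reported no significant difference in the numbers of megakaryocytic erythroid progenitors or of total BM cells. Those progenitors were gated by surface proteins and are not the same set as the members here. The part of other cells in the lower share was not tested. The WT share was 5.49 times that of Y665F in replicate 1 and 12.4 times in replicate 2. Without WT replicate 1 the difference was -4.23 points (exact permutation p = 0.2).

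The rule depends on depth, since a deeper cell more often shows both Gata1 and Klf1. After every barcode was thinned to 1500 UMIs and shallower ones were left out, members made up 1.66% ± 0.31 of WT, 1.62% ± 0.55 of Y665H and 0.28% ± 0.227 of Y665F cells (SD, n = 2 each). Both Y665F libraries again lay below the other 4. The limits on Pf4 and Cpa3 took out between 6.06% and 11.6% of Gata1 and Klf1 cells in WT and Y665H, and 23.6% and 60.8% in Y665F replicates 1 and 2. Without those limits 428 of 16814 and 209 of 18711 Y665F cells met the rule, a mean share of 1.83%, and the difference from WT was -7.10 points. The WT share was then 4.75 times that of Y665F in replicate 1 and 5.17 times in replicate 2. The limit on globin took out no cell in any of the 6 BM libraries, the highest globin share there being 0.925%, so that no globin-rich cells of the same kind were there to compare. In the lymph node the same rule found 0 cells in all 7 libraries, which allows shares of up to 0.0361% to 1.28%, and in the single spleen libraries 3 of 6743 WT, 5 of 7876 Y665H and 4 of 4947 Y665F cells.

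**Figure D1:**
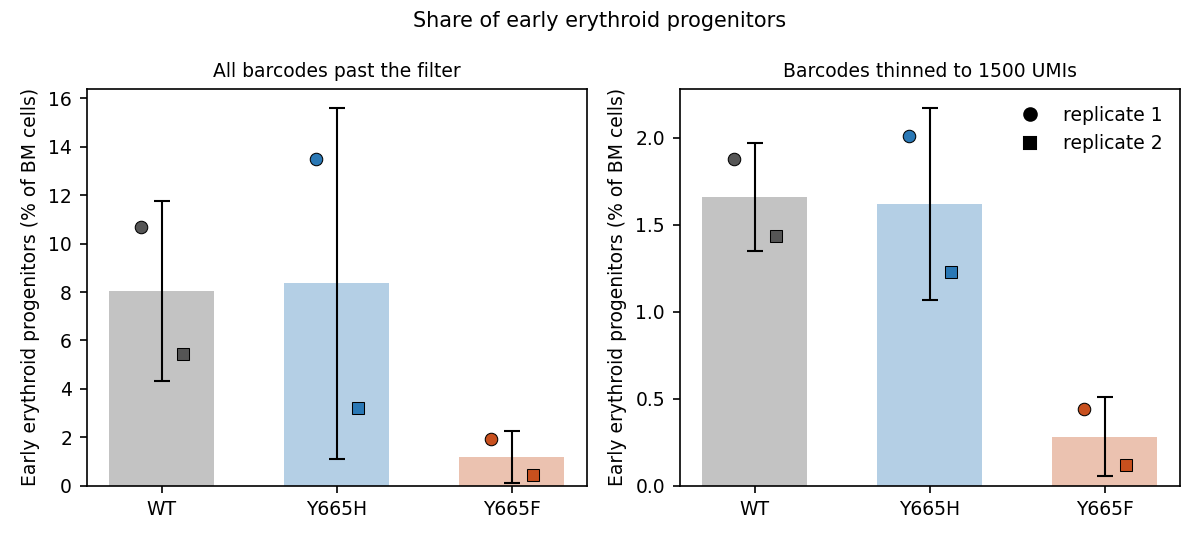
Members as a percentage of the loaded BM cells for each genotype. All barcodes past the filter are on the left and barcodes thinned to 1500 UMIs on the right. Bars are means, error bars SD (n = 2), circles replicate 1 and squares replicate 2. The Y665F libraries are the 2 lowest in both panels, at 1.94% and 0.438% on the left.

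The rule genes set the members and are described without a test. Gata1 stood at 201 and 256 CPM (UMIs of the gene per 1e6 UMIs summed over the members of a library) in WT, 212 and 243 in Y665H, and 166 and 200 in Y665F. Klf1 was 236 and 272 CPM in WT, 224 and 274 in Y665H, and 190 and 200 in Y665F. Members with only 1 UMI of each gene made up 15.5% and 47.1% in WT, 27.8% and 54.0% in Y665H, and 45.6% and 75.6% in Y665F. Y665F replicate 2 had the highest share of members that only just passed. Hba-a1, the most abundant of the globins there, was at 141 and 141 CPM in WT, 147 and 66.6 in Y665H, and 20.7 and 102 in Y665F. Alas2, which opens heme synthesis in later red cells, was at or below 1.38 CPM in every library. Globin was thus at trace levels in the members of all genotypes.

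Cells that held only Gata1 or only Klf1 had less Car1 than the members with 1 UMI of each, within each library. In WT replicate 1 the 64 members with 1 UMI each had Car1 at 6862 CPM, where the 227 cells with Klf1 and no Gata1 had 5171 and the 259 cells with Gata1 and no Klf1 had 4484. In Y665F replicate 1 these 3 values were 2003, 1950 and 1391 CPM. Cells outside the rule thus also held less Car1 in this Y665F library than in that of WT. Cells left out for a Pf4 or Cpa3 UMI had Car1 at 5346 and 9446 CPM in WT and 2268 and 1042 CPM in Y665F.

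The markers of the label were present in every library and their levels differed between genotypes. Thinned to 1500 UMIs, 94.9% and 97.6% of WT members, 96.5% and 96.0% of Y665H members, and 78.8% and 62.2% of Y665F members had a Car1 UMI. Without thinning these shares were between 98.5% and 99.4% in WT and Y665H, and 91.1% and 86.6% in Y665F. Among all other BM cells the thinned share was 48.6% and 60.0% in WT, 69.6% and 75.2% in Y665H, and 25.8% and 35.6% in Y665F, so Car1 RNA was also found widely outside the members. As a percentage of a cell's UMIs, median Car1 was 0.596% and 0.862% in WT, 0.766% and 0.667% in Y665H, and 0.179% and 0.0739% in Y665F members. Cells with more than 0.5% Car1 made up 61.3% to 78.1% of WT and Y665H members, 4.59% (15 cells) of Y665F replicate 1 and 0 of 82 cells of Y665F replicate 2, which allows a share of up to 3.66% by counting error alone. The Y665F members thus held few or none of the Car1-rich cells that made up most WT and Y665H members.

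**Figure D2:**
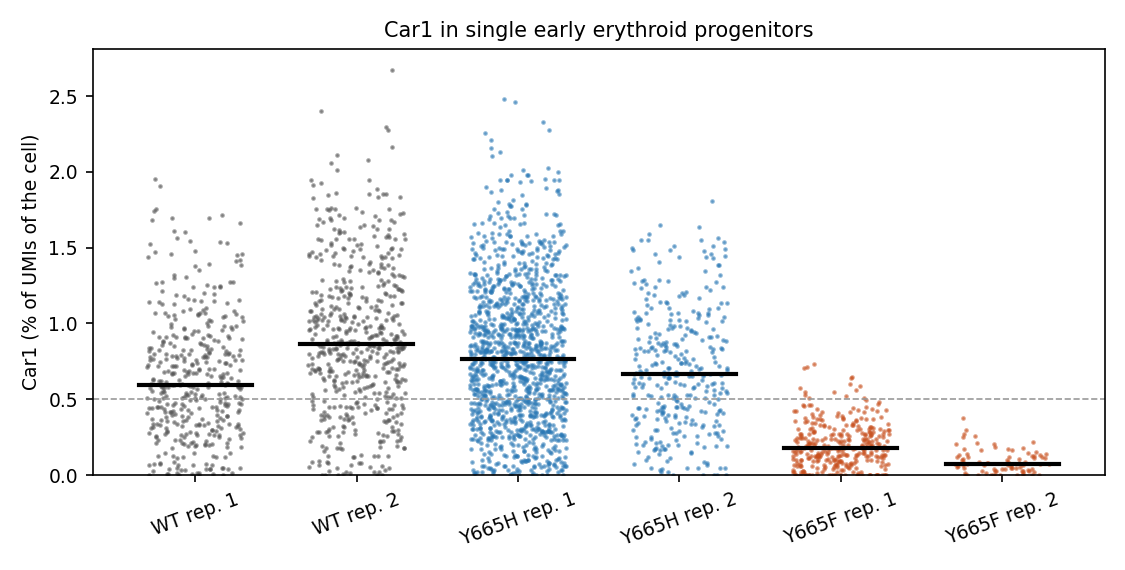
Car1 as a percentage of the UMIs of each member cell, by library. Each point is 1 cell, black lines are medians, and the dashed line marks 0.5%. Y665F cells reach lower medians (0.179% and 0.0739%) than those of the other 4 libraries (0.596% to 0.862%).

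Expression in members was compared between genotypes on UMI counts summed per library, with edgeR's quasi-likelihood test and Benjamini-Hochberg adjustment over 9359 genes. A gene is called here at an adjusted p under 0.05. Between Y665F and WT, 2001 genes (21.4% of those tested) were called, 879 higher (9.39%) and 1122 lower (12%) in Y665F, and 1215 (13%) also passed a log2 fold change of 1. Both Y665F libraries lay above both WT libraries in CPM for 39.2% of genes and below both for 25.9%. CPM here and below were not scaled by the library factors of the test. These factors were 1.02 and 0.937 in WT and 1.04 and 1.16 in Y665F. Relative to WT, Y665F thus stood higher in CPM than on the scale of the test. The count was smaller by 1.5 times or more without Y665F replicate 2, without WT replicate 1 and without WT replicate 2. DESeq2 called 1229 (409 higher and 820 lower). Between Y665F and Y665H, 2361 genes (25.2%) were called, 1066 higher (11.4%) and 1295 lower (13.8%), and 1418 (15.2%) also passed a log2 of 1. Both Y665F libraries lay above both Y665H libraries for 43.9% of genes and below both for 24.1%. The count was 410 without Y665H replicate 1, 980 without Y665F replicate 2 and 1466 by DESeq2 (512 higher and 954 lower). These comparisons share the Y665F libraries and are given side by side. A gene was tested where at least 2 libraries reached 3.37 CPM, so a gene near 0 in WT and Y665H was tested only if it was high in Y665F. Of the genes tested, 676 passed in this way, 170 of them called higher against WT. Among the other 8683, 709 (8.17%) were called higher. Another 658 passed only through WT and Y665H, 63 of them called lower. Among the 8701 that passed in Y665F, 1059 (12.2%) were called lower. Counts in the lists below are partly set by this filter, and are given for both kinds of gene where they differ.

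No gene was called between Y665H and WT members by edgeR (0 of 9359, 0%). At an unadjusted p under 0.05 edgeR had 128 genes and DESeq2, which also called 0, had 25. Both Y665H libraries lay above both WT libraries for 8.68% of genes and below both for 18.0%. Leaving out WT replicate 2 or Y665H replicate 2 gave 3 called genes each, which were Ccl4, Fos and AY036118 without the former, and Nfkbia and 2 Y-linked genes without the latter. They are named after their values were seen. The median log2 fold change over all tested genes was -0.01 here and 0.02 between Y665F and WT. By the test as described, none of the lists below had a called gene between Y665H and WT. With at least 3 UMIs of Gata1 and Klf1 together in each member, Cd74 (-1.90) and H2-Aa (-1.95) of the B cell list were called lower in Y665H. With no filter on low counts Hspa1a (5.06) and Hspa1b (2.99) of the stress list, Dqx1 and Nfkbia were called higher. With a replicate block, which here also stands for sex, Hspa1a of the stress list was called (log2 5.13, edgeR adjusted p 0.00105), at 0 and 0.320 CPM in WT and 2.66 and 8.73 in Y665H, on 1 UMI in WT. The low count does not show that Y665H and WT members were alike.

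**Figure D3:**
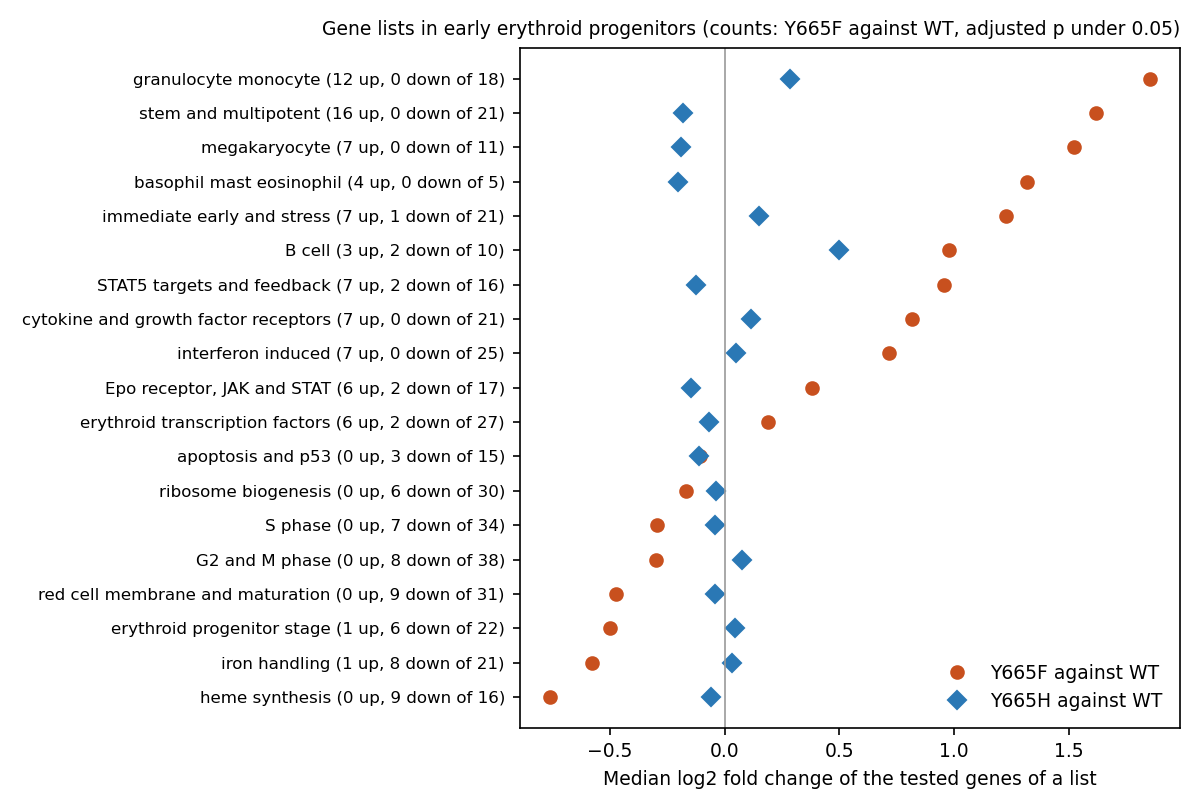
Median log2 fold change of the tested genes of each list, for Y665F against WT (circles) and Y665H against WT (diamonds), with the counts of genes called between Y665F and WT beside the names. Y665F medians run from -0.76 for heme synthesis to 1.85 for granulocyte and monocyte genes.

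Part of the red cell genes fell in Y665F members. Of 31 tested genes of the red cell membrane and maturation, 9 (29.0%) were called lower and none higher in Y665F against WT (median log2 -0.47, beside 0.02 over all genes). Over all genes 21.4% were called and 12% were called lower. Of 22 tested genes that mark the stages of erythroid progenitors, 6 were called lower and 1 higher (31.8% called, median -0.50). Car1, a carbonic anhydrase gained early in the lineage (chr3:14766216-14808368, GRCm38.p6), stood at 6473 and 9382 CPM in WT, 8176 and 7349 in Y665H, and 2324 and 1099 in Y665F. Both Y665F libraries lay far below the other 4. The log2 fold change against WT was -2.35 (SE 0.31, edgeR adjusted p 0.000193). Among members with Car1 between 0.1% and 0.5% of their UMIs, a window set after the data were seen, Car1 itself differed by a log2 of -0.55. The window bounds Car1 in each cell, so this value describes the window and is no test of Car1.

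Rhd, a Rhesus blood group protein of the membrane, was at 316 and 296 CPM in WT, 352 and 261 in Y665H, and 93.2 and 53.2 in Y665F. Both Y665F libraries lay under the other 4. Rhd fell by 2.09 on the log2 scale against WT (SE 0.27, edgeR adjusted p 0.000171) and was called under all 17 other settings tried, which are other tools, filters and cell limits and the removal of each library. Car2, a second carbonic anhydrase, was called lower at log2 -1.47 and Prdx2, an antioxidant enzyme abundant in red cells, at -1.29. Of the rest of the list, Ermap (232 and 162 CPM in WT, 194 and 115 in Y665F) and Rhag (59.6 and 37.1 in WT, 67.5 and 34.0 in Y665F), both membrane proteins of the lineage, overlapped between the genotypes. The list did not move as a block, and 22 of its 31 tested genes did not pass the test.

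Heme synthesis showed the lowest median of the lists, at log2 -0.76. Of 16 tested genes, 9 (56.2%) were called lower in Y665F against WT and none higher, and against Y665H 8 were called lower. Over all genes 12% were called lower against WT and 13.8% against Y665H. Of the 15 heme genes that passed the filter on low counts in Y665F, 8 were called lower against WT. Alad, the second enzyme of the pathway, stood at 374 and 320 CPM in WT, 356 and 255 in Y665H, and 168 and 91.4 in Y665F. Every Y665F value was under every other value. Its log2 fold change against WT was -1.48 (SE 0.27, edgeR adjusted p 0.00178), and it was called under all 17 other settings.

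Later enzymes of the pathway also had lower values in Y665F, with some exceptions. Uros and Urod, which close and trim the ring, were called at log2 -1.21 and -0.74. Their calls were lost without Y665F replicate 2 (edgeR adjusted p 0.147 and 0.163) and without WT replicate 1 (0.241 and 0.179), that of Urod also without Y665H replicate 1 (0.0516). Ppox, a later enzyme of the pathway, was called at -1.01 (edgeR adjusted p 0.0162), and at 0.0903 without Y665F replicate 2 and 0.0882 without WT replicate 1. Cpox, which stands between Urod and Ppox, did not pass the test, with 204 and 146 CPM in WT, 155 and 133 in Y665H, and 217 and 119 in Y665F. Fech, which inserts the iron, was at 66.0 and 38.7 CPM in WT and 38.9 and 34.0 in Y665F (edgeR adjusted p 0.0974, and 0.0279 with a replicate block). Alas1, the housekeeping enzyme of the first step, was at 14.5 and 8.31 CPM in WT and 15.0 and 17.0 in Y665F (edgeR adjusted p 0.564).

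Carriers of the same pathway were among the lower genes. Tmem14c, which moves a heme precursor in mitochondria, went from 943 and 888 CPM in WT to 537 and 298 in Y665F (log2 -1.24, SE 0.26, edgeR adjusted p 0.00382). Y665H libraries, at 964 and 903 CPM, lay beside WT. Slc25a39, a mitochondrial carrier, was called at -1.30 and Slc25a38, the glycine carrier of heme synthesis, at -0.78. The latter call was lost without WT replicate 1 (edgeR adjusted p 0.182) or Y665F replicate 2 (0.13).

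**Figure D4:**
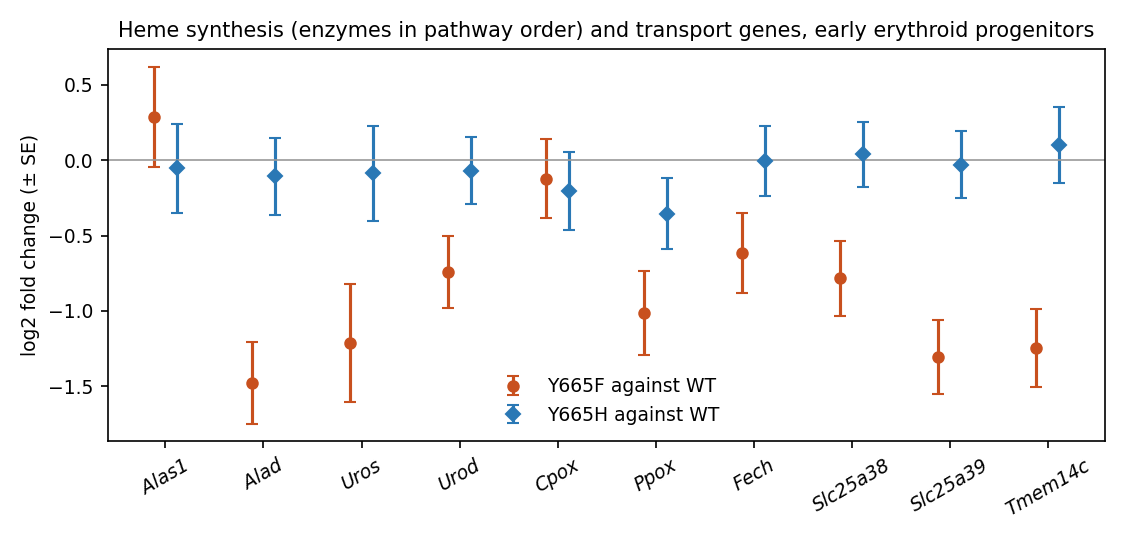
Log2 fold change with its SE for the enzymes of heme synthesis described in the text, in pathway order, and 3 of its carriers, in Y665F against WT (circles) and Y665H against WT (diamonds). All but Alas1 and Cpox lie more than 1 SE below 0 in Y665F, from -0.62 (Fech) to -1.48 (Alad).

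Some iron genes fell too. Of 21 tested, 8 were called lower and 1 higher in Y665F against WT (42.9% called, beside 21.4% over all genes, median log2 -0.58). Fth1, the heavy chain of the iron store ferritin, stood at 6060 and 6826 CPM in WT, 7245 and 6650 in Y665H, and 3818 and 2273 in Y665F. All Y665F values were below all others. The log2 fold change was -1.23 (SE 0.25, edgeR adjusted p 0.00342). Pcbp1, an RNA-binding protein that also delivers iron to ferritin, had the lowest value of the list at -1.72 (SE 0.22, edgeR adjusted p 0.000173), from 836 and 715 CPM in WT to 271 and 251 in Y665F. Tfrc, the transferrin receptor through which these cells take up iron, did not pass the test, with 83.8 and 58.5 CPM in WT, 59.5 and 57.3 in Y665H, and 90.3 and 119 in Y665F (edgeR adjusted p 0.275). Slc25a37, a mitochondrial iron importer, was the gene called higher (log2 0.85, edgeR adjusted p 0.0419), a call made under 5 of 17 other settings and lost when any 1 of the 6 libraries was left out. The summed level of the list was 10747 to 11963 CPM in WT and Y665H members and 4982 to 7299 in Y665F. Other BM cells held 7407 to 8793 CPM in WT and Y665H and 3662 to 4856 in Y665F. The heme list went from 2340 to 2884 CPM in WT and Y665H members to 1084 to 1699 in Y665F members, and in other cells from 1391 to 1768 down to 700 to 851 CPM. For the red cell list other cells held 5318 to 9238 CPM in WT and Y665H and 2196 to 2503 in Y665F. The sums of these lists were thus lower in Y665F in the other cells as well.

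Transcription factors of the lineage went in both directions, as did the calls over all genes. Of 27 tested, 8 (29.6%, beside 21.4% over all genes) were called, 6 higher and 2 lower in Y665F against WT (median log2 0.19). Gata2, which precedes Gata1 in progenitors, was at 13.8 and 15.0 CPM in WT, 8.90 and 18.6 in Y665H, and 45.0 and 93.6 in Y665F. Both Y665F libraries lay above all others. Gata2 rose by a log2 of 1.94 against WT (SE 0.34, edgeR adjusted p 0.00142) and was called under all 17 other settings. Runx1, a factor of stem cells and megakaryocytes, rose from 24.8 and 14.7 CPM in WT to 53.9 and 108 in Y665F (log2 1.70, SE 0.32, edgeR adjusted p 0.00199), where Y665H had 16.1 and 27.3. Cbfa2t3, a corepressor of progenitors, was called at 1.62 and Myb, which keeps progenitors dividing, at 0.85. The Myb call was lost without either WT library (edgeR adjusted p 0.0756 and 0.072) or Y665F replicate 2 (0.0752).

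Gfi1b, the repressor whose GATA and STAT5 sites are printed above, was one of the 2 factors that were lower. It was at 91.7 and 65.2 CPM in WT, 70.4 and 59.5 in Y665H, and 37.5 and 29.8 in Y665F. The Y665F values were the 2 lowest. Its log2 fold change was -1.28 (SE 0.25, edgeR adjusted p 0.00247), called under all 17 other settings. The other was E2f4, a cell cycle factor needed by red cell precursors (-1.34, edgeR adjusted p 0.00289). Tal1, a partner of Gata1, stood at 52.4 and 40.9 CPM in WT and 70.7 and 68.0 in Y665F (edgeR adjusted p 0.176). Myc, a growth factor target that falls as red cells mature, had a log2 of 0.19 (edgeR adjusted p 0.578), which was -0.04 without WT replicate 2.

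Genes of the erythropoietin pathway were compared next, since they carry the signal to the edited protein. Of 17 tested genes of the receptor, the JAK kinases and the STAT factors, 6 were called higher and 2 lower in Y665F against WT. This was 47.1% called, beside 21.4% over all genes, with a median log2 of 0.38. Leaving out 1 gene that passed the filter on low counts only through Y665F, 5 of 16 were called higher. Epor, the receptor itself (chr9:21958897-21963506, minus strand), was at 80.1 and 63.6 CPM in WT, 70.7 and 45.8 in Y665H, and 43.2 and 21.3 in Y665F. The lower Y665H library lay close to the higher Y665F one. Epor fell by 1.08 on the log2 scale against WT (SE 0.28, edgeR adjusted p 0.0115), and the adjusted p was 0.0835 without Y665F replicate 2 and 0.0676 without WT replicate 1. Thinned to 1500 UMIs, 9.27% and 7.35% of WT members and 4.92% and 5.41% of Y665F members had an Epor UMI, against 3.24% and 2.93% of other cells in WT and 1.56% and 1.43% in Y665F. Unthinned, the shares of members were 57.4% and 28.0% in WT and 27.8% and 9.76% in Y665F.

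Stat5b, the edited gene, was itself at a higher RNA level in Y665F members, at 17.6 and 11.5 CPM in WT, 11.9 and 13.6 in Y665H, and 31.4 and 36.1 in Y665F. The Y665F libraries lay above all others and the Y665H libraries lay within the WT range. The log2 fold change was 1.01 (SE 0.28, edgeR adjusted p 0.0161). The call was lost with DESeq2 (adjusted p 0.0807), without WT replicate 2 (edgeR adjusted p 0.105), without Y665F replicate 1 (0.124) and without Y665F replicate 2 (0.0582). Stat5a, its near-identical neighbour, did not pass the test, at 29.3 and 22.4 CPM in WT, 21.3 and 27.3 in Y665H, and 38.2 and 34.0 in Y665F (log2 0.38, edgeR adjusted p 0.307). Counts of the pair are uncertain where they share sequence, and the matrices count whole genes, so the edited base was not read.

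Other genes of the path stood as follows. Jak2, the kinase bound to Epor, was at 13.8 and 12.8 CPM in WT, 10.7 and 15.3 in Y665H, and 20.7 and 48.9 in Y665F, a log2 of 0.96 at the edge of the threshold (edgeR adjusted p 0.0499). It was called under 6 of 17 other settings, and its adjusted p was 0.29 without Y665F replicate 2, 0.157 and 0.107 without WT replicates 1 and 2, and 0.0515 without Y665H replicate 1. Gab2, an adaptor of cytokine receptors, rose from 2.02 and 2.24 CPM in WT to 11.4 and 21.3 in Y665F (log2 2.61, SE 0.51, edgeR adjusted p 0.00262). Y665H libraries had Gab2 at 1.19 and 1.64 CPM, below both WT libraries. Gab2 was thus tested only because it was high in Y665F. Stat3, whose end overlaps that of Stat5a on the other strand and whose count is uncertain for that reason, was called at log2 1.54. Jak1 was called lower at -0.69, under 6 of 17 other settings, with an edgeR adjusted p of 0.172 without Y665F replicate 2, 0.0934 and 0.13 without WT replicates 1 and 2, and 0.0596 and 0.0535 without Y665H replicates 1 and 2.

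Some STAT5 targets and feedback genes rose in Y665F members. Of the 16 tested of 24, 7 were called higher and 2 lower against WT (56.2% called, beside 21.4% over all genes, median log2 0.95), and against Y665H 7 were higher and 2 lower (median 1.09), where 25.2% of all genes were called. Of the 16, 6 passed the filter only through Y665F, Socs2 and Cish among them, and 3 of these were called higher. Of the other 10, 4 were called higher. Of the 16, 2 passed the filter only through WT and Y665H, and 1 of these was called lower. Socs2, an inhibitor that STAT5 switches on, was at 1.28 and 0 CPM in WT, 0.551 and 0.546 in Y665H, and 31.1 and 42.5 in Y665F. The gene was nearly silent in WT and Y665H members and present in both Y665F libraries. It rose by a log2 of 5.28 (SE 0.55, edgeR adjusted p 2.43e-05), and was called under all 17 other settings. Thinned to 1500 UMIs, 4.31% and 10.8% of Y665F members had a Socs2 UMI, against 0.488% and 0% in WT, where the 0 allows up to 0.551%. Among other Y665F cells the thinned shares were 15.0% and 12.5%, above those of the members, and without thinning they were 23.9% and 19.1% beside 18.7% and 22.0% of members.

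Cish, whose window with 2 STAT5 sites is printed above, was at 1.10 and 0.320 CPM in WT, 0.551 and 2.18 in Y665H, and 6.43 and 14.9 in Y665F. All Y665F values were above all others, at low counts. The log2 fold change was 3.27 (SE 0.76, edgeR adjusted p 0.00719), and the adjusted p was 0.0546 without Y665F replicate 2 and 0.0505 without WT replicate 2. Pim1, a survival kinase, rose from 12.5 and 15.7 CPM in WT and 11.7 and 13.1 in Y665H to 43.2 and 91.4 in Y665F (log2 1.94, SE 0.31, edgeR adjusted p 0.000667), called under all 17 other settings. Among genes against cell death, Mcl1 was called at log2 1.09 and Bcl2 at 1.40, calls that were lost without Y665F replicate 2 (edgeR adjusted p 0.0879 and 0.154), for Bcl2 also without WT replicate 1 (0.177), without members that held a mature myeloid UMI (0.222) and with a Car1 UMI in each member (0.0525). In the Car1 window neither was called (0.323 and 0.157). Bcl2l1, the survival gene best known from erythropoietin signalling, did not pass the test, at 2.02 and 4.16 CPM in WT, 2.48 and 1.64 in Y665H, and 3.93 and 8.50 in Y665F (edgeR adjusted p 0.499). Socs3 reached at most 2.13 CPM and was too low to test.

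The D-type cyclins, which start the cell cycle and of which some are STAT5 targets, went in different directions. Ccnd2 was at 56.1 and 49.2 CPM in WT, 37.0 and 51.8 in Y665H, and 106 and 189 in Y665F (log2 1.23, SE 0.26, edgeR adjusted p 0.00374). Ccnd3, the cyclin that sets division number in red cell precursors, was at 121 and 88.9 CPM in WT, 104 and 60.0 in Y665H, and 52.8 and 61.7 in Y665F. Its log2 was -1.05 (edgeR adjusted p 0.00973), and its adjusted p was 0.0714 without WT replicate 1, 0.0552 without Y665F replicate 1 and 0.0502 without Y665F replicate 2. Ccnd1 was low throughout, at 4.77 and 4.80 CPM in WT, 4.13 and 8.73 in Y665H, and 0.357 and 0 in Y665F. It passed the filter on low counts only through WT and Y665H. It was called lower in Y665F (log2 -3.94, edgeR adjusted p 0.00981), and the adjusted p was 0.13 without Y665F replicate 1.

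**Figure D5:**
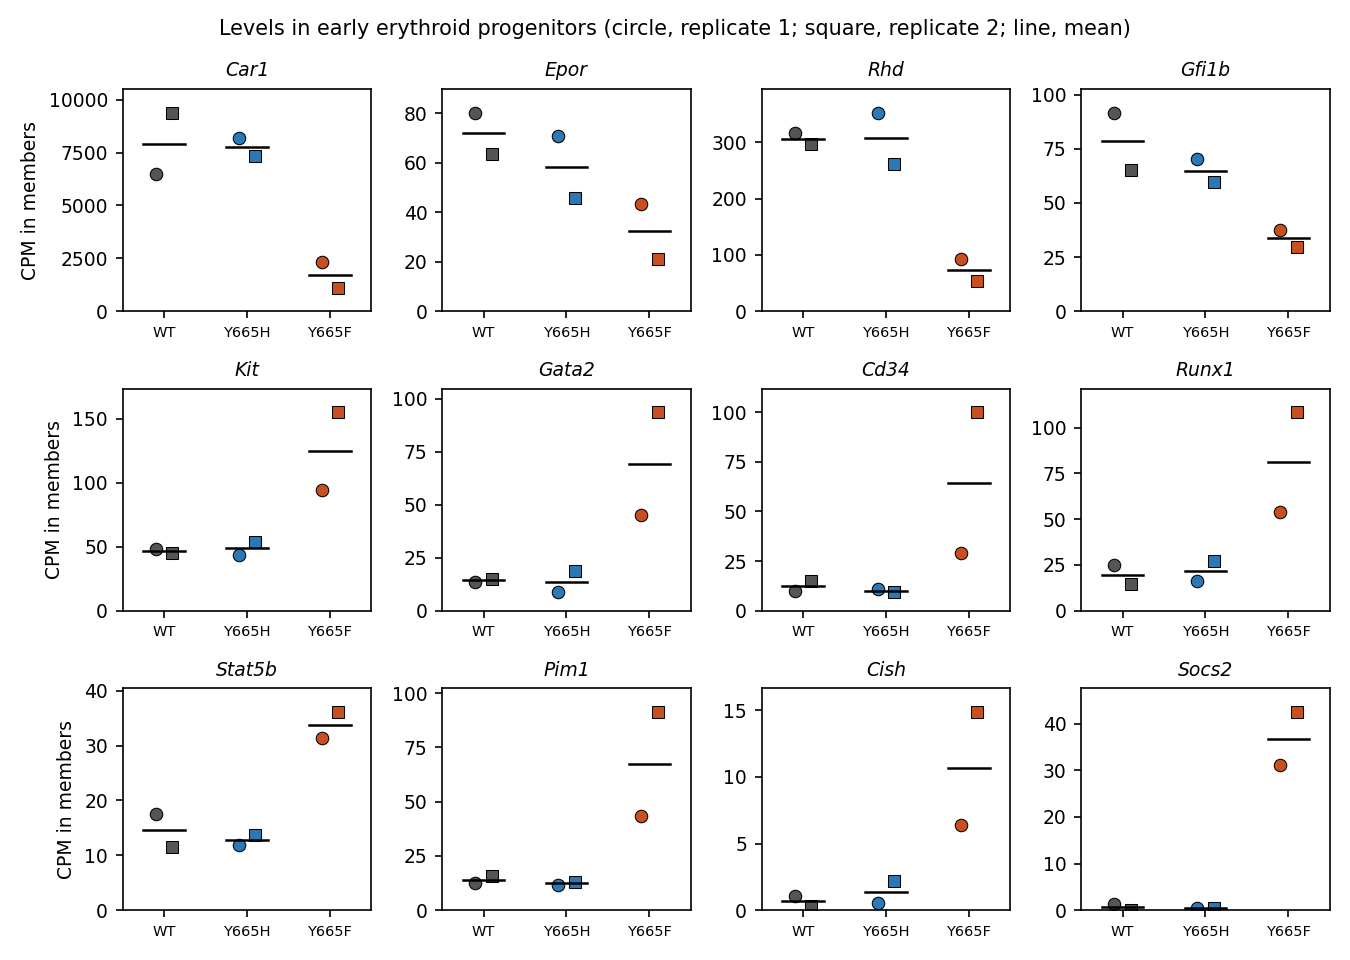
CPM in the members of each library for 12 genes. Circles are replicate 1, squares replicate 2 and lines means (n = 2). In the upper row (Car1, Epor, Rhd, Gfi1b) both Y665F libraries lie lowest, and in the other rows, from Kit to Socs2, both lie highest.

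Kit and part of the other receptors rose in Y665F members. Kit, the stem cell factor receptor, stood at 48.2 and 45.1 CPM in WT, 43.9 and 54.0 in Y665H, and 94.3 and 155 in Y665F. The Y665F libraries were above all others. Kit rose by a log2 of 1.17 (SE 0.24, edgeR adjusted p 0.00342) and was called under 16 of 17 other settings. In the Car1 window of 0.1% to 0.5% its log2 was 0.91 (edgeR adjusted p 0.0612). Of 21 tested cytokine and growth factor receptors 7 (33.3%) were called higher and none lower (median log2 0.82, beside 9.39% called higher over all genes, and 3 of the 16 that passed the filter without Y665F), among them Igf1r (1.52), a growth factor receptor, and Csf2rb (3.34), the shared chain of the IL-3 and GM-CSF receptors. The Csf2rb call was lost without WT replicate 1 (edgeR adjusted p 0.126) or Y665F replicate 2 (0.0546).

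Of the 21 tested genes of stem and multipotent cells, 16 (76.2%) were called higher in Y665F against WT and none lower (median log2 1.62), beside 9.39% called higher over all genes. Leaving out 5 genes that passed the filter only through Y665F, 12 of 16 were called higher. Cd34, a surface protein of early progenitors, was at 9.90 and 15.0 CPM in WT, 10.7 and 9.28 in Y665H, and 28.9 and 99.9 in Y665F. All other BM cells had Cd34 between 77.4 and 200.2 CPM, and members were below the other cells of their own library in each of the 6. The log2 fold change was 1.93 (SE 0.40, edgeR adjusted p 0.00369). Sox4, a factor of immature cells, rose from 13.9 and 19.8 CPM in WT to 53.2 and 168 in Y665F (log2 2.35, SE 0.37, edgeR adjusted p 0.000667). Ifitm1, an interferon-induced membrane protein of stem cells, rose from 35.4 and 58.8 CPM in WT and 34.0 and 107 in Y665H to 360 and 517 in Y665F (log2 3.03, SE 0.40, edgeR adjusted p 0.000193). Hlf, a stem cell factor, was called at log2 2.85, with an edgeR adjusted p of 0.0793 without Y665F replicate 2.

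Summed over the 30 genes of this list, members held 432 to 494 CPM in WT and Y665H and 1331 and 2352 CPM in Y665F. Other BM cells held 1433 to 2276 CPM in WT and Y665H and 4011 to 4879 in Y665F. The list was therefore also higher in Y665F among the cells around the members, and the part of RNA from such cells in the result was not tested. Between 1 and 3 of its genes were at 0 in each WT and Y665H library and at most 2 in a Y665F library.

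Megakaryocyte genes moved in the members although cells with a Pf4 UMI had been left out. Of 11 tested, 7 were called higher and none lower (median log2 1.52), beside 9.39% called higher over all genes. Of the 7 that passed the filter without Y665F, 5 were called higher. Itga2b, the platelet integrin CD41, was at 2.93 and 2.24 CPM in WT, 1.38 and 3.82 in Y665H, and 11.8 and 29.8 in Y665F (log2 2.54, SE 0.54, edgeR adjusted p 0.004). Both Y665F libraries were highest. Of the late platelet genes, Gp1bb, part of the platelet receptor for Vwf, was nearly absent, at or below 0.184 CPM in every library. Vwf was high enough to test and did not pass (edgeR adjusted p 0.401). Over the 26 genes of the list the members held 80 to 101 CPM in WT and Y665H and 204 and 368 in Y665F, where other cells held 236 to 417 and 756 to 793.

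Of the basophil and mast cell list only 5 of 26 genes could be tested, and 4 were called higher, beside the 9.39% over all genes. Leaving out 1 gene that passed the filter only through Y665F, 3 of 4 were called higher. Slc18a2, a transporter of histamine-storing cells, went from 3.30 and 5.76 CPM in WT to 18.6 and 23.4 in Y665F (log2 2.06, SE 0.44, edgeR adjusted p 0.00396, and 0.0502 without WT replicate 1). The defining basophil gene Mcpt8 was at or below 2.88 CPM in every library. Summed, the list stood at 285 to 340 CPM in WT and Y665H members and 666 and 910 in Y665F members.

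Granulocyte and monocyte genes were the list with the highest median, at log2 1.85, with 12 of 18 tested (66.7%) called higher and none lower in Y665F, beside 9.39% called higher over all genes. Of these 18, 7 passed the filter only through Y665F, and of the other 11, 6 were called higher. S100a9, a protein of mature neutrophils, was at 0.550 and 0.959 CPM in WT, 2.48 and 1.09 in Y665H, and 23.2 and 213 in Y665F members. Its log2 was 6.85 (SE 0.85, edgeR adjusted p 0.000164), the largest rise among the named genes, and 4.90 without Y665F replicate 2, 7.88 without Y665F replicate 1 and 5.03 with doublets removed. Among other BM cells S100a9 stood at 7.84 to 35.4 CPM in WT and Y665H, and at 1235 and 540 CPM in Y665F, as sums over all other cells that were not broken down by cell type. Of the members, 3.54% to 10.1% in WT and Y665H and 49.2% and 40.2% in Y665F had at least 1 UMI of S100a8, S100a9, Ngp, Camp or Lyz2. For other cells of the same libraries these shares were 6.75% to 17.5% and 50.6% and 44.1%. The share in members was thus below or near that in other cells, and the part of free RNA in these values was not tested.

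Some genes of granulocyte progenitors changed differently in members and other cells by the main interaction test given below. Mpo, the myeloperoxidase of granule precursors, was at 61.1 and 40.9 CPM in WT, 41.9 and 50.8 in Y665H, and 132 and 378 in Y665F members (log2 2.04, SE 0.33, edgeR adjusted p 0.000801). Prtn3, a granule protease, rose from 111 and 145 CPM in WT to 340 and 602 in Y665F (log2 1.67, SE 0.26, edgeR adjusted p 0.00068). In other BM cells Prtn3 was at 1284 and 976 CPM in WT and 1312 and 826 in Y665F, where the genotypes overlapped. Without the members that held a mature myeloid UMI, a limit set after the data were seen, 1233 genes were called between Y665F and WT. Prtn3 was among them (edgeR adjusted p 0.0065). Elane, another granule protease, was highest in Y665F members that only just passed. Those with 1 UMI each of Gata1 and Klf1 had 429 and 666 CPM, beside 75.6 and 221 in WT and 158 and 152 in Y665H. With at least 3 UMIs together the values were 128 and 154 in Y665F, 45.4 and 107 in WT, and 116 and 106 in Y665H.

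Whether these effects of Y665F were larger in members than in the other loaded BM cells was tested as an interaction. The 2 sums of each library formed a block. Of 12557 genes, 128 (1.02%) were called, 126 (1%) with a more positive log2 change in members and 2 (0.0159%) with a more negative one. DESeq2 called 11, 50 were called with doublets removed (47 of them among the 128), and the count was 7 without Y665F replicate 2, 26 without WT replicate 1, 56 without Y665H replicate 1, 45 without Y665H replicate 2 and 348 without WT replicate 2. Of the 128, 89 were also called between Y665F and WT members, and 29 were lower in other cells of both Y665F libraries than of both WT libraries. Prtn3 (difference in log2 change 1.80, edgeR adjusted p 7.37e-05), Ctsg (1.94) and Elane (1.86), granule proteases of neutrophil precursors, and Mpo (1.59) were among the called. The genes named here were not followed one by one through the settings just listed. From the list of stem and multipotent genes 5 were called, Cd34 (1.57) and Sox4 (1.22) among them. From the B cell list 5 were called, which were Cd79a (2.63), Dntt (2.04), Vpreb3 (2.02), Igll1 (1.96) and Ebf1 (1.79), and from the heme, iron, red cell and erythroid transcription factor lists none. Rhd, Alad, Gata2 and Kit thus had changes in members that this test did not separate from those in other BM cells. This does not show that the changes were equal. Of cells with over 0.5% Car1, 253 of 522 and 436 of 2672 in WT were members. In Y665H 884 of 2860 and 224 of 2557 were, and in Y665F replicate 1 15 of 83. Most Car1-rich cells of WT and Y665H thus stood among the other BM cells. The test therefore compared members in part with Car1-rich cells, and member shares do not count all such cells.

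Lymphoid genes were low in members. Of 10 tested B cell genes 3 were called higher and 2 lower against WT (50% called, beside 21.4% over all genes, median log2 0.98). Those called higher were Cd79a (2.45), part of the B cell receptor, and Vpreb3 (2.40) and Igll1 (1.48), genes of B cell precursors. Cd79a stood at 0.917 and 3.84 CPM in WT, 1.56 and 4.37 in Y665H, and 8.93 and 23.4 in Y665F (edgeR adjusted p 0.0161). All 3 calls were lost without WT replicate 1 (edgeR adjusted p 0.161, 0.117 and 0.288) and without Y665F replicate 2 (0.113, 0.128 and 0.132). With doublets removed Igll1 was not called (0.113). H2-Aa (-2.51), an antigen-presenting molecule, and Cd74 were the lower ones. Of the 9 B cell genes that passed the filter on low counts in Y665F, 1 was called lower. Cd74, a chaperone of antigen presentation, was at 58.5 and 44.5 CPM in WT, 20.9 and 49.1 in Y665H, and 10.4 and 8.50 in Y665F (log2 -2.48, SE 0.41, edgeR adjusted p 0.000885). After cells with a high doublet score were taken out its log2 was -0.78 (edgeR adjusted p 0.392). Such cells were 17 of 413 and 40 of 558 WT members, 85 of 1248 and 44 of 339 Y665H members, and 50 of 327 and 15 of 82 Y665F members. Summed over 17 B cell genes, members held 85 to 171 CPM in WT and Y665H and 119 and 255 in Y665F. The T and NK cell list stood at 25 to 53 and at 70 and 140 CPM, with 2 of 16 genes testable. Macrophage genes of the erythroid island stood at 9 CPM or less in total, and Vcam1, which anchors red cell precursors to such macrophages, was at 0 in members of every library. None of 6 other globin genes, among them the embryonic ones, was high enough to test, and all 6 were at 0 in both Y665F libraries.

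Some cell cycle genes were called lower in Y665F members. Of 34 tested S phase genes 7 were called lower and none higher in Y665F against WT (median log2 -0.30), and of 38 tested genes of the G2 and M phases 8 were called lower and none higher (median -0.30). These shares of genes called lower (20.6% and 21.1%) stand beside 12% called lower over all genes. Rrm2, the subunit of ribonucleotide reductase that limits the supply of DNA building blocks, was at 373 and 309 CPM in WT, 386 and 242 in Y665H, and 67.8 and 70.2 in Y665F. Both Y665F libraries lay far below the rest. It fell by 2.45 on the log2 scale (SE 0.26, edgeR adjusted p 2.43e-05) and was called under all 17 other settings. Ccnb2, a mitotic cyclin, fell by 1.84 (SE 0.25, edgeR adjusted p 0.000261), from 164 and 170 CPM in WT to 52.5 and 48.9 in Y665F. Mki67, the proliferation marker, was at 119 and 109 CPM in WT, 129 and 130 in Y665H, and 168 and 213 in Y665F, and did not pass the test (edgeR adjusted p 0.0706, and 0.0463 with a replicate block).

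The Car1 window narrowed the range of Car1 in the cells compared without matching it, since Car1 still differed there by a log2 of -0.55. With members between 0.1% and 0.5% Car1 only, 480 genes were called between Y665F and WT, 0 between Y665H and WT (175 at an unadjusted p under 0.05) and 752 between Y665F and Y665H, over 7249 genes. Rhd and Alad remained called against WT, and so did Rrm2 and Sox4, while Kit, Epor, Stat5b, Runx1 and Cd34 were not called. In that window Socs2 kept its call and S100a9 had a log2 of 8.17. Fewer cells entered this comparison, so a lost call there does not show that a gene was unchanged.

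Further genes with the largest changes were named by a rule of size (10 rises and 10 falls among called genes with a log2 over 1, groups that did not overlap and at least 20 CPM in the higher group). In Y665F against WT, 823 genes met it, 364 higher and 459 lower. Beside S100a9 and Socs2, the rises reported here were those of the neutrophil genes Camp (6.45), S100a8 (6.17) and Ngp (4.54), of Serpina3g (4.29), a protease inhibitor, and of Myct1 (3.30) and Fosb (3.10). Camp had a log2 of 4.59 without Y665F replicate 2, 5.36 without WT replicate 1, 7.61 without WT replicate 2, 7.51 without Y665F replicate 1 and 4.39 with doublets removed. S100a8 had 3.69 without Y665F replicate 2, 5.30 without WT replicate 1, 6.92 without WT replicate 2, 7.27 without Y665F replicate 1 and 4.23 with doublets removed. Without WT replicate 1 the adjusted p was 0.0538 for Myct1 and 0.11 for Fosb, and without Y665F replicate 2 it was 0.227 for Fosb. Serpina3g stood at 2.38 and 0.959 CPM in WT, 2.48 and 0.546 in Y665H, and 34.6 and 48.9 in Y665F, with an edgeR adjusted p of 2.43e-05. Falls, besides Cd74, Rrm2, Car1 and Rhd, were those of Gm4316 (-3.08), Tubb2a (-2.48), Taf9 (-2.33), Aldoa (-2.25), Tceal3 (-2.14) and Selenbp1 (-2.10). Aldoa, an enzyme of glycolysis, went from 657 and 618 CPM in WT and 645 and 427 in Y665H to 167 and 119 in Y665F.

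Against Y665H, 942 genes met the rule, 430 higher and 512 lower in Y665F. The rises that the comparison with WT did not name were those of Hlf (3.17), Egr1 (3.10) and Vav3 (3.06), and the falls were those of Hist1h2an (-2.21), Degs1 (-2.14) and Rsph3a (-2.14). Egr1, an immediate early factor, was at 4.86 and 9.28 CPM in Y665H, 6.23 and 10.9 in WT, and 30.3 and 119 in Y665F. Car1 differed from Y665H by a log2 of -2.38, Socs2 by 5.72 and Alad by -1.37. Of Egr1 and Fosb, Y665F replicate 2 held the higher value, and without it the adjusted p of Fosb against WT was 0.23.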

How the data were processed

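The authors deposited tables of UMI counts, by gene and barcode, from Cell Ranger (6.0.0 per the file headers of the BM libraries, 5.0 in the submitters' processing notes, which also name Seurat 4.0 and mm10). Counts were used as deposited, with 32285 genes a matrix. CPM are UMIs of a gene per 1e6 UMIs summed over the cells of a library. The labels and the study's methods name different 10x kits, which read opposite transcript ends.

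Members were summed per library and compared with edgeR 4.0.16 in R 4.3.3 (TMM scaling, filterByExpr, quasi-likelihood test, 3 genotypes in 1 model, Benjamini-Hochberg adjustment, calls at an adjusted p under 0.05). The 8 genes of the rule and mitochondrial genes were not tested. The difference from other BM cells was an interaction term with the library as a block. Shares were compared with an exact permutation test. Alternatives were DESeq2 1.42.0, its size factors, no filter on low counts, at least 1200 UMIs, a globin limit of 0.5%, a Car1 UMI in each member, removal of doublet scores (0.8% per 1000 barcodes, 20 neighbours in 30 components of 2000 genes), a replicate block and leaving out each library. After seeing the data a Car1 window, at least 3 UMIs of Gata1 and Klf1 together, no mature myeloid UMI, and no Pf4 and Cpa3 limits were added. Tests on simulated data used 9000 genes for Y665F against WT, where 7 unchanged genes were called. Of 92 tested genes with a set log2 change of 1 in size, 39 (42.4%) were recovered. For a change of 2 in size, 70 of 88 (79.5%) were recovered. The simulated counts had the same spread setting for every gene and no effect of sex. These rates therefore need not hold for the real libraries.

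Named genes were the 10 largest rises and falls among called genes with a log2 over 1, no overlap between groups and at least 20 CPM in the higher group, called members of the lists, and the genes of the rule and pathway. Sex-linked genes and antigen receptor segments were left out of the first. Some genes that this rule names are not reported here. Members and lists were chosen with earlier results of these data known. For shares across depths, barcodes were thinned to 1500 UMIs. Limits given for a count of 0 rest on 3 counts and cover counting error only. Doublets were scored but kept in the reported values.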

Additional observations from a re-analysis of the deposited data

Results flagged for a closer look

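The change between Y665F and WT differed between members and the other BM cells for 128 genes, by the interaction test with edgeR. Among them were 3 of the genes named by size in the report, each with a more positive log2 change in members. Their calls in this test were not followed gene by gene through the other settings. The difference in log2 change was 2.87 for Vav3, a signalling protein, which was at 2.02 and 3.20 CPM in WT and 10.4 and 36.1 in Y665F members, and at 70.1 and 25.9 CPM in WT and 38.4 and 41.6 in Y665F other cells. It was 2.03 for the immediate early gene Fosb and 1.76 for the protease inhibitor Serpina3g. Serpina3g was at 33.9 and 11.4 CPM in other WT cells and 154 and 104 in other Y665F cells, so it was higher in Y665F there too.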

How the results depend on the processing

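Counts are given here as a percentage of the genes tested, since settings differ in how many genes could be tested. Between Y665F and WT, 21.4% became 13.1% with DESeq2 (1203 of its 1229 genes were also called by edgeR), 6.62% in the Car1 window, 14.5% with at least 3 UMIs of Gata1 and Klf1 together, 13.9% without mature myeloid UMIs, 13% with a log2 over 1, and 6.85% to 19.4% when 1 library was left out. Between Y665F and Y665H, 25.2% became 15.7%, 10.4%, 18.0%, 16.7% and 15.2% in the same order, and 4.11% to 23.4% without 1 library. Between Y665H and WT, 0% became 0.0258% with no filter on low counts, 0.0236% with at least 3 UMIs, and 0% to 0.0299% without 1 library. The interaction, at 1.02%, became 0.0876% with DESeq2, 0.404% without doublets, 0.622% with a Car1 UMI in each member, and 0.054% to 2.65% without 1 library. The causes were not tested, though fewer cells or libraries entered most of these settings. With a replicate block the percentages were 29.7% (Y665F against WT), 33.7% (Y665F against Y665H) and 0.0107%, or 1 gene, the heat shock gene Hspa1a (Y665H against WT). Of 12 genes that the text gives as not called against WT, 2 (Fech and Mki67) were called with it. Sex goes with the replicate number, the labels give no pairing, each comparison has 2 pairs, and same-numbered libraries correlated in their deviations from the group means at 0.104 to 0.201 over 9354 genes. For named genes, 2217 of 2649 values against WT and 2260 of 2695 against Y665H kept direction and side of the threshold. One direction turned, that of Myc against WT, at -0.040 without WT replicate 2, where leaving out the others gave up to 0.40. The difference in share stayed negative, from -4.23 to -9.49 points without 1 library, and -1.38 after thinning. A comparison with globin-rich cells and a share among Gata1 and Klf1 cells were not run, since the globin limit removed 0 cells. Depth limits Y665F replicate 2 most, with 470329 UMIs in 82 cells.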

Other observations

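Immediate early and stress genes, interferon-induced genes and growth genes are described here. Of 21 tested immediate early and stress genes, 7 were called higher and 1 lower in Y665F against WT (38.1% called, beside 21.4% over all genes, median log2 1.23), Egr1 at 2.71 and Jun at 1.77, both transcription factors of the early response. The Jun call was lost without WT replicate 1 (edgeR adjusted p 0.126) or Y665F replicate 2 (0.158), and with DESeq2 (0.14). Against Y665H, 5 were higher and 2 lower (33.3% called, beside 25.2% over all genes), with a median of 0.33. Of the 17 genes that passed the filter on low counts without Y665F, 4 were called higher against WT. Of 25 tested interferon-induced genes, 7 (28%, beside 9.39% called higher over all genes) were called higher and none lower against WT (median 0.72), and 3 of the 19 that passed the filter without Y665F, with Gbp2, a GTPase of the interferon response, at 0.550 and 0.640 CPM in WT, 1.19 and 0 in Y665H, and 6.07 and 8.50 in Y665F (log2 3.33, edgeR adjusted p 0.00769, and 0.0992 without WT replicate 1 and 0.0699 without Y665F replicate 1). Ribosome biogenesis had 6 of 30 genes called lower and none higher (median -0.17), and Srm, which makes spermidine, was at -1.15. Of 15 tested genes of cell death and p53, 3 were called lower, Bak1 (-1.16) and Bid (-0.89), which promote cell death, and the cell cycle inhibitor Cdkn2c (-1.21), and none higher. Without WT replicate 1 all 3 calls were lost (edgeR adjusted p 0.0758, 0.0526 and 0.0779), those of Bak1 and Cdkn2c also without Y665F replicate 1 (0.0557 and 0.582), those of Bid and Cdkn2c without WT replicate 2 (0.072 and 0.0665), and that of Bid without Y665F replicate 2 (0.0981). In the Car1 window none of the 3 was called. Bid and Cdkn2c were also not called with DESeq2 (0.065 and 0.181), without doublets (0.0555 and 0.0834) or without mature myeloid UMIs (0.108 and 0.0938), nor Cdkn2c with at least 3 UMIs of Gata1 and Klf1 (0.095). The shares called lower of the last lists, 20% in each, stand beside 12% called lower over all genes.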
